A study of Mus musculus with 8 samples.

Results

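The genes described here are 10 regulators of the step at which a cell commits to DNA replication: the CDK inhibitors Cdkn1a, Cdkn1b, Cdkn2c and Cdkn2d, the pocket proteins Rb1, Rbl1 and Rbl2, and the E2F factors E2f1, E2f7 and E2f8. They were chosen by symbol, and each symbol matched 1 of the 27998 genes counted. Their transcripts were read in 14626 microglia in 8 libraries, and inside and outside the 2730 cells with UMIs of the proliferation markers Mki67 or Top2a.

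In a resting cell, the pocket proteins (RB, p107 and p130, encoded by Rb1, Rbl1 and Rbl2) hold E2F factors and keep their target genes silent. Cyclin-dependent kinases phosphorylate the pocket proteins, E2F1 and its relatives are released, and genes for DNA replication are switched on. The CDK inhibitors act against this step: p21 (Cdkn1a) and p27 (Cdkn1b) bind cyclin-CDK complexes broadly, while p18 (Cdkn2c) and p19 (Cdkn2d) belong to the INK4 family and bind CDK4 and CDK6. E2F7 and E2F8 are atypical E2Fs that bind DNA without a DP partner and without a pocket protein, and they repress E2F targets later in the cycle.

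The cells were YFP+ microglia sorted from the lumbar spinal cord of young adult mice that had received tamoxifen, with cords of several animals pooled for each library. Control mice were Cx3cr1-yfp-creER/+, and A20 cKO mice were Cx3cr1-yfp-creER/+; Tnfaip3 fl/fl, in which Cre in Cx3cr1-expressing cells removes the gene for A20, an inhibitor of NF-kB signaling. Each genotype gave 1 library from naive mice and 1 each at 1, 2 and 3 days after bilateral sciatic nerve transection, so a group is 1 library with no replicate, and libraries were set side by side without a test. The 3′ ends that were sequenced need not lie in the deleted part of Tnfaip3, and its UMIs are no check of the deletion.

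A UMI is a tag that counts 1 captured transcript molecule, and levels are given as CPM, a gene's UMIs scaled to counts-per-million of all UMIs in the cells in question. The libraries held between 1648400 and 15817426 UMIs, with medians of 2780 to 4274 UMIs per kept cell. Of the microglial markers, Csf1r had UMIs in 96.1% to 99.8% of cells, P2ry12 in 90.1% to 100% and Fcrls in 26.7% to 97.6%, with its lowest shares in the A20 cKO libraries. Of 3 perivascular macrophage markers, Cd163 was at 0 in all libraries and the list was in at most 0.750% of cells. The control day 3 library and the 4 A20 cKO libraries shared 256 cell barcodes over their 10 pairs, against 98 over the 15 pairs that joined them to the other 3 libraries and 27 over the 3 pairs among those. These 5 libraries also held Ttr, a choroid plexus gene, in 2.7% to 6.2% of cells, and it was at 0 in the other 3. The oligodendrocyte gene Mbp was in 18.5% to 41.5% of their cells against 5.42% to 6.53%, and the 3 monocyte markers, whose Ccr2 stayed at or under 1.08% of cells everywhere, summed to 24.4 to 83.7 CPM against 1.85 to 3.70 CPM. The part of these cells or RNAs in the results was not tested. Genotype, and control day 3 against control naive, therefore cannot be told apart from this split of the libraries, and 349 kept cells carried a shared barcode.

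Cells with at least 1 UMI of Mki67 or Top2a, called marker-positive below, made up 0.528%, 1.93%, 46.7% and 21.2% of the control libraries (naive, day 1, day 2 and day 3) and 6.50%, 8.47%, 27.6% and 16.1% of the A20 cKO libraries. The control naive library held only 3 such cells. A single UMI of the pair put 52.4% of these cells in the class, and marker-negative cells still included cycling cells, of which 11.3% in control day 2 fell in the G2/M class defined below. Of all UMIs, 24.4% came from marker-positive cells, beside which the members' own shares are given. That share ran from 0.676% to 54.6% between libraries, so shares pooled over libraries mix library with cell class, and values within each library follow below.

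E2f8, E2f7 and Cdkn2c were held mostly by marker-positive cells, which gave 85.5% of E2f8 UMIs, 83.7% of E2f7 UMIs and 66.1% of Cdkn2c UMIs. E2f1, Cdkn2d and Rbl1 lay between, with 52.6%, 49.0% and 41.5%. The remaining members were at or below the share of all UMIs, with 23.5% for Rb1, 23.4% for Cdkn1a, 19.97% for Cdkn1b and 19.8% for Rbl2. The 10 genes thus fell into 6 that were concentrated in marker-positive cells and 4 that were not, and both the CDK inhibitors and the pocket proteins were divided: the INK4 genes against Cdkn1a and Cdkn1b, and Rbl1 against Rb1 and Rbl2.

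The genes lie on autosomes of build GRCm38 (GENCODE M21). Cdkn1a spans positions 29090976 to 29100727 of chromosome 17, Cdkn1b 134920401 to 134925513 of chromosome 6, Cdkn2c 109660876 to 109667189 of chromosome 4 and Cdkn2d 21288410 to 21291407 of chromosome 9. Rb1 spans 73183673 to 73325822 of chromosome 14, Rbl1 157145893 to 157204534 of chromosome 2 and Rbl2 91070057 to 91123844 of chromosome 8. E2f1 spans 154559407 to 154569892 of chromosome 2, E2f7 110745439 to 110787384 of chromosome 10 and E2f8 48866429 to 48881596 of chromosome 7. No other counted gene overlaps any of them on the same strand.

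The 250 bases before the RefSeq transcript start (build GRCm38.p6) were read for 9 members, because E2F and G2/M genes are known for short promoter letters that pocket protein complexes bind. Shown are the windows of the 3 genes from the first set that held a match, and of Cdkn1b, which held none. Rbl2, outside that set, also held a match and is not shown. Capitals mark matches, on either strand, to E2F letters (TTTCCCGC, TTTCGCGC, TTTGCCGC or TTTGGCGC) or to CHR letters (TTTGAA or TTCGAA), which do not overlap here. E2f7 lies at chr10:110745189-110745438 on the plus strand, Rbl1 at chr2:157204535-157204784 on the minus strand, E2f8 at chr7:48881597-48881846 on the minus strand, and Cdkn1b at chr6:134920151-134920400 on the plus strand, each just upstream of its gene.
E2f7: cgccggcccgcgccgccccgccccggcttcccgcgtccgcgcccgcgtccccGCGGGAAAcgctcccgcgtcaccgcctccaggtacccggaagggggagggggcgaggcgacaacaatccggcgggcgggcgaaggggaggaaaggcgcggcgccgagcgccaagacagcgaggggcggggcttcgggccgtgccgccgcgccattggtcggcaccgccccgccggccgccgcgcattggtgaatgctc
Rbl1: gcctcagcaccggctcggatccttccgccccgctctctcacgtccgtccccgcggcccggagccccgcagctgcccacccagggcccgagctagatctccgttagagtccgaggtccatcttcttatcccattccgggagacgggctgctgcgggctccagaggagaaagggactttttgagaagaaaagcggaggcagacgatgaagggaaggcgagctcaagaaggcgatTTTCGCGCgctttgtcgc
E2f8: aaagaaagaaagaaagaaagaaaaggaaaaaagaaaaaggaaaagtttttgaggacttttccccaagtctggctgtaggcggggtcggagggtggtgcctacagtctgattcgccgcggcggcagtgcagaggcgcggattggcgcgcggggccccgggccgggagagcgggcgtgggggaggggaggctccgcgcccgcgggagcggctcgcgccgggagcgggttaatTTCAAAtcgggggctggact
Cdkn1b: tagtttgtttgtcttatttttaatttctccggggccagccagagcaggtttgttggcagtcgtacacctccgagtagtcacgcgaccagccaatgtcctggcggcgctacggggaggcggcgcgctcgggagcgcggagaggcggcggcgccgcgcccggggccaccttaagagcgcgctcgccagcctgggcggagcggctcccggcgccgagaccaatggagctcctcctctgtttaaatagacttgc
E2F letters stood in the windows of 2 of the 9 members, at 198 to 191 bases before the start in E2f7 (as the reverse complement GCGGGAAA) and at 18 to 11 bases in Rbl1, against 1.86% of all 32851 windows. CHR letters stood in E2f8, 20 to 15 bases before the start, and in Rbl2, 201 to 196 bases before it, against 17.15% of all windows. The windows of Cdkn1a, Cdkn1b, Cdkn2c, Cdkn2d and E2f1 held neither. For E2f1 and Cdkn2c, all 250 bases of these windows lay inside the annotated gene. The bases upstream of these genes were thus not read. Inside their own genes also lay 198 bases of the Cdkn2d window and 250 bases of a Cdkn1a window. A match of letters is a description and not a shown binding site.

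Cdkn1a encodes p21, which is induced by p53 and by growth factor signaling and can stop the cycle. Its level over all kept cells in the control libraries, given here and below in the order naive, day 1, day 2 and day 3, was 164 CPM (95% counting interval 144 to 184), 293 CPM (284 to 302), 283 CPM (275 to 291) and 244 CPM (232 to 255). The A20 cKO libraries gave 334 CPM (322 to 346), 302 CPM (283 to 322), 262 CPM (244 to 281) and 442 CPM (417 to 469) in the same order. The control naive library was the lowest and A20 cKO day 3 the highest, and neither interval met that of another library, while the orders differed between genotypes: all 3 control days lay above control naive, and A20 cKO days 1 and 2 lay below A20 cKO naive. Intervals here cover counting error only, and the spread between animals was not measured.

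Cdkn1b encodes p27, which keeps resting cells out of the cycle. It stood at 37.0, 27.5, 27.1 and 85.1 CPM in the control libraries and at 102, 62.7, 77.5 and 79.9 CPM in the A20 cKO libraries. The 5 libraries that shared barcodes ran from 62.7 to 102 CPM and the other 3 from 27.1 to 37.0 CPM, without overlap.

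Over all kept cells, whose marker-positive share was highest on day 2 in each genotype, the INK4 genes differed between time points. Values within the marker classes follow below. Cdkn2c was read at 11.7, 5.41, 37.2 and 26.6 CPM in control libraries and at 13.9, 11.2, 36.6 and 20.5 CPM in A20 cKO libraries. Cdkn2d was read at 15.4, 15.2, 52.0 and 48.0 CPM and at 19.6, 23.1, 48.5 and 24.4 CPM. In both genotypes the day 2 library was the highest for both genes, although the control day 2 and day 3 intervals of Cdkn2d overlapped (48.5 to 55.6 and 43.1 to 53.3 CPM).

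Among pocket proteins, RB restrains E2F1 to E2F3, whereas p107 and p130 work with the repressor E2Fs in complexes such as DREAM. Rb1 was read at 30.2, 16.9, 19.0 and 43.8 CPM in control libraries and 47.8, 46.9, 35.6 and 57.1 CPM in A20 cKO libraries. Rbl1 was read at 9.87, 10.4, 18.9 and 28.3 CPM and at 20.3, 33.0, 34.3 and 22.8 CPM. Rbl2, the pocket protein of resting cells, stood at 17.3, 8.11, 11.4 and 33.3 CPM and at 42.6, 31.7, 26.04 and 28.3 CPM. All 3 pocket proteins, like Cdkn1b, were higher in each of the 5 barcode-sharing libraries than in each of the other 3. These 4 of 10 members, counted after their values were seen, compare with 20.4% of the 10201 genes with at least 200 UMIs that were higher without overlap in the same 5 libraries, and none of the members lay lower without overlap, as 10.2% of those genes did.

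E2F1 is the activator E2F that opens the S-phase program. E2f1 was read at 3.09 (1.00 to 7.20), 12.9 (11.1 to 14.9), 46.8 (43.5 to 50.3) and 15.5 (12.8 to 18.6) CPM in control libraries. The A20 cKO libraries gave 8.41 (6.61 to 10.5), 20.1 (15.4 to 25.9), 25.7 (20.3 to 32.1) and 11.8 (7.96 to 16.9) CPM. Day 2 was again the highest in each genotype, with control day 2 above every other library and A20 cKO days 1 and 2 not separated by their intervals.

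The repressors E2f7 and E2f8 were the scarcest members by count, with 276 and 550 UMIs in all. E2f7 had 0 UMIs in the 568 control naive cells, where 3 UMIs would have been 1.85 CPM, and stood at 0.142, 10.2 and 4.12 CPM on days 1, 2 and 3. It stood at 2.58, 4.62, 11.5 and 3.93 CPM in the A20 cKO libraries. E2f8 was read at 1.85, 0.356, 18.4 and 11.9 CPM in control libraries, the first 2 values resting on 3 and 5 UMIs, and at 6.50, 8.26, 16.5 and 12.2 CPM in A20 cKO libraries. On control day 1, when E2f1 was already at 12.9 CPM, E2f7 had 2 and E2f8 had 5 UMIs in 3323 cells, and both had their control maximum on day 2.

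**Figure D1:**
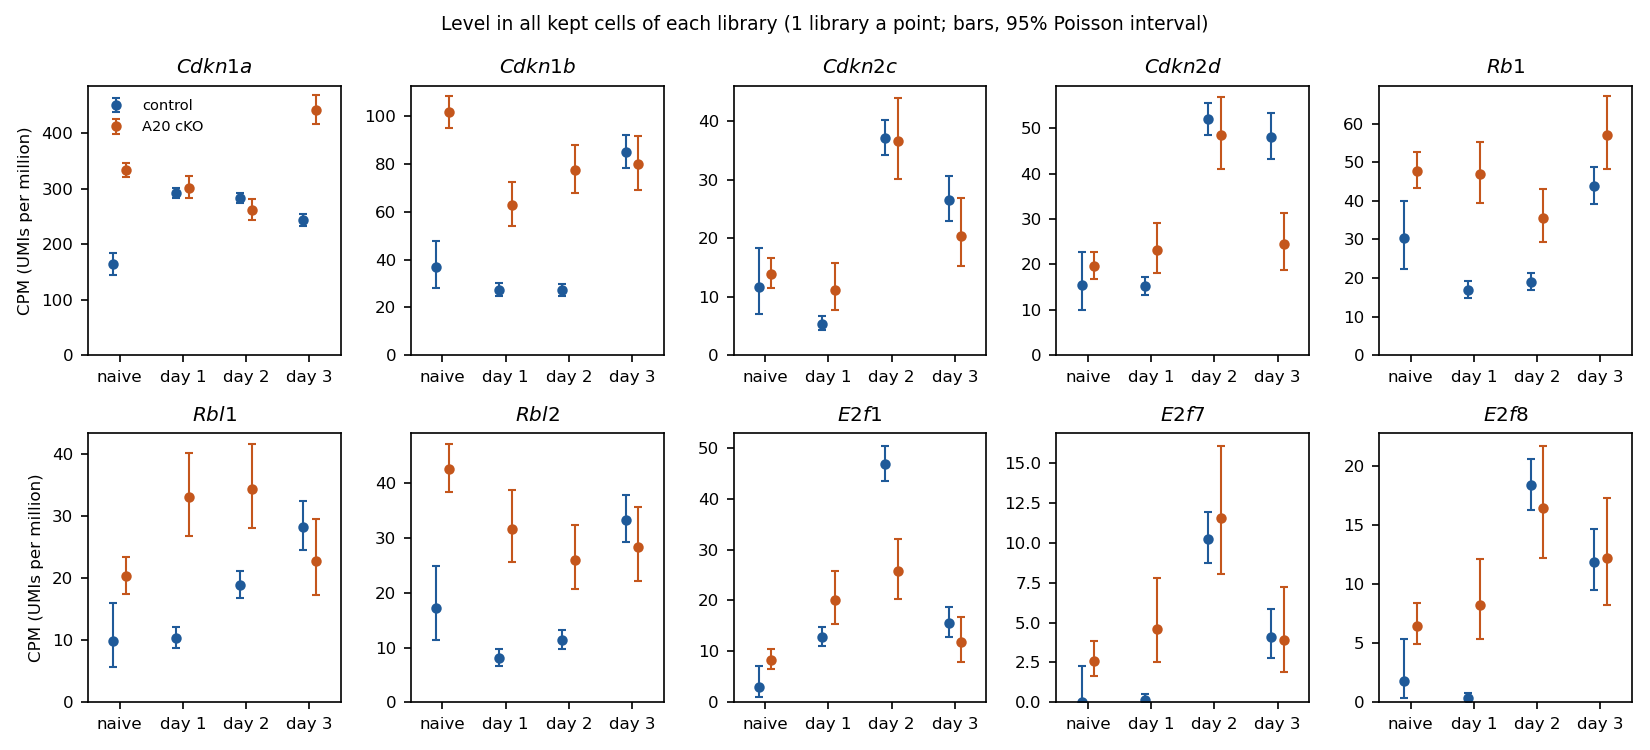
Level of each of the 10 genes (CPM over all kept cells, 1 panel per gene) in the 4 control and 4 A20 cKO libraries, naive and at days 1, 2 and 3. Points are single libraries and bars are exact 95% Poisson intervals, which cover counting error only. Cdkn2c, Cdkn2d, E2f1, E2f7 and E2f8 have their highest value on day 2 in each genotype, and Cdkn1b, Rb1, Rbl1 and Rbl2 are higher in control day 3 and the A20 cKO libraries than in the other 3.

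Detection in single cells followed these levels. Cdkn1a had a UMI in 48.0% of all kept cells, from 24.6% in control naive to 62.4% in A20 cKO day 3. E2f1 was detected in 0.880%, 5.03%, 16.9% and 4.44% of cells in the control libraries, and E2f7 in at most 4.21% of cells of any library. With each cell thinned to 2000 UMIs and shallower cells left out, the E2f1 shares were 0.681%, 2.30%, 8.21% and 2.54%, and the order of the 4 libraries did not change. No cell type that should lack these genes was measured, so the part of free RNA in these shares was not tested.

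Marker-positive cells were then compared with marker-negative cells of the same library, which asks how the members go with the proliferation markers without setting libraries against each other. For E2f8, the marker-positive cells of control days 1, 2 and 3 had 11.2, 28.7 and 40.0 CPM against 0.073, 5.99 and 1.69 CPM in marker-negative cells. In A20 cKO naive and days 1, 2 and 3, the E2f8 values were 57.8, 63.2, 40.6 and 51.5 CPM against 1.36, 1.12, 3.08 and 1.98 CPM. All 7 marker-positive values exceeded all 8 marker-negative values. The control day 1 value rests on 4 UMIs in 64 cells.

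For E2f7, marker-positive cells had 2.80, 15.5 and 13.8 CPM on the control days and 24.6, 23.0, 29.5 and 17.2 CPM in the A20 cKO libraries. Marker-negative cells had 0.073, 3.90 and 0.562 CPM and 0.370, 2.24, 1.54 and 0.496 CPM. The gene was higher in marker-positive cells in 7 of 7 libraries, by log2 ratios of 1.97 to 5.87, although the control day 1 value was a single UMI.

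E2f1 differed less, with 47.7, 57.2 and 26.7 CPM in marker-positive cells of the control days against 11.97, 34.4 and 11.4 CPM in marker-negative cells. In the A20 cKO libraries it had 23.4, 80.4, 49.8 and 22.9 CPM against 6.91, 12.3, 12.3 and 8.92 CPM. The log2 ratio was smallest on control day 2, 0.73 (0.51 to 0.96), where marker-negative cells held more E2f1 than those of any other library.

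Cdkn2c, the INK4 gene with the steeper difference, had 14.0, 51.5 and 73.3 CPM in marker-positive cells of the control days and 67.7, 48.8, 78.4 and 78.2 CPM in those of the A20 cKO libraries. Its marker-negative cells had 5.18, 19.9 and 9.56 CPM and 8.51, 6.34, 13.3 and 5.45 CPM. Cdkn2d had 28.0, 64.5 and 76.9 CPM and 45.5, 74.7, 94.1 and 59.2 CPM in marker-positive cells. In marker-negative cells Cdkn2d had 14.8, 36.9 and 37.5 CPM and 17.0, 16.4, 23.1 and 15.4 CPM. Both inhibitors, which act against CDK4 and CDK6, were thus higher in the marker-positive cells of each of these 7 libraries.

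Rbl1 was the pocket protein gene that was higher in marker-positive cells of each library, with 19.6, 23.3 and 51.3 CPM against 10.1, 13.7 and 19.9 CPM on the control days. In the A20 cKO libraries it had 49.2, 54.6, 63.6 and 47.7 CPM against 17.4, 30.2, 18.0 and 16.4 CPM. Rb1, by contrast, had 14.0, 19.0 and 48.2 CPM against 17.0, 18.9 and 42.2 CPM on the control days, and Rbl2 had 5.61, 10.7 and 35.9 CPM against 8.17, 12.4 and 32.4 CPM. In the A20 cKO libraries Rb1 had 50.4, 40.2, 44.3 and 74.4 CPM against 47.5, 47.8, 30.8 and 52.5 CPM, and Rbl2 had 20.9, 31.6, 25.8 and 30.5 CPM against 44.8, 31.7, 26.2 and 27.8 CPM. Rb1 was higher in marker-positive cells in 5 and Rbl2 in 2 of 7 libraries, and neither had a common direction.

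Cdkn1a in marker-positive cells was 255, 279 and 261 CPM on the control days and 383, 287, 243 and 302 CPM in the A20 cKO libraries. Marker-negative cells had 294, 288 and 237 CPM and 329, 304, 272 and 479 CPM. The log2 ratio ran from -0.66 to 0.22 and was above 0 in 2 of 7 libraries. Cdkn1b had 28.0, 24.4 and 88.7 CPM against 27.4, 30.4 and 83.8 CPM on the control days and 92.3, 63.2, 65.5 and 82.1 CPM against 103, 62.7, 84.1 and 79.3 CPM in the A20 cKO libraries. Transcripts of p21 and p27 were thus present in marker-positive microglia of each of the 7 libraries, with no common direction against the other cells.

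Over the 7 libraries with at least 20 marker-positive cells, edgeR's quasi-likelihood test with library as block and Benjamini-Hochberg adjustment over 9797 genes called 5 of the 9 members that passed its low-count filter, all higher, against 12.8% of all genes higher and 8.81% lower. The log2 difference was 4.05 ± 0.35 (SE) for E2f8 (adjusted p = 2.58e-07), 2.44 ± 0.22 for Cdkn2c (4.14e-07), 1.48 ± 0.19 for E2f1 (1.8e-05), 1.32 ± 0.15 for Cdkn2d (5.1e-06) and 1.24 ± 0.14 for Rbl1 (3.14e-06). The other 4 were not called, with -0.11 ± 0.08 for Cdkn1a (adjusted p = 0.397), -0.14 ± 0.08 for Cdkn1b (0.253), 0.14 ± 0.11 for Rb1 (0.406) and -0.20 ± 0.15 for Rbl2 (0.378). E2f7 was removed by the filter, and the same edgeR fit without a filter gave 3.54 ± 0.27. Its p-value is not given, since p-values of the unfiltered fit cannot be set beside those of the filtered one. The median over the 9 members was 1.24, beside -0.02 over all genes. Marker-positive cells were deeper (medians of 3998 to 5536 UMIs in these 7 libraries, against 2776.5 to 4135 UMIs), and the same 5 genes were called without the cells above 2 times their library's median UMIs.

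**Figure D2:**
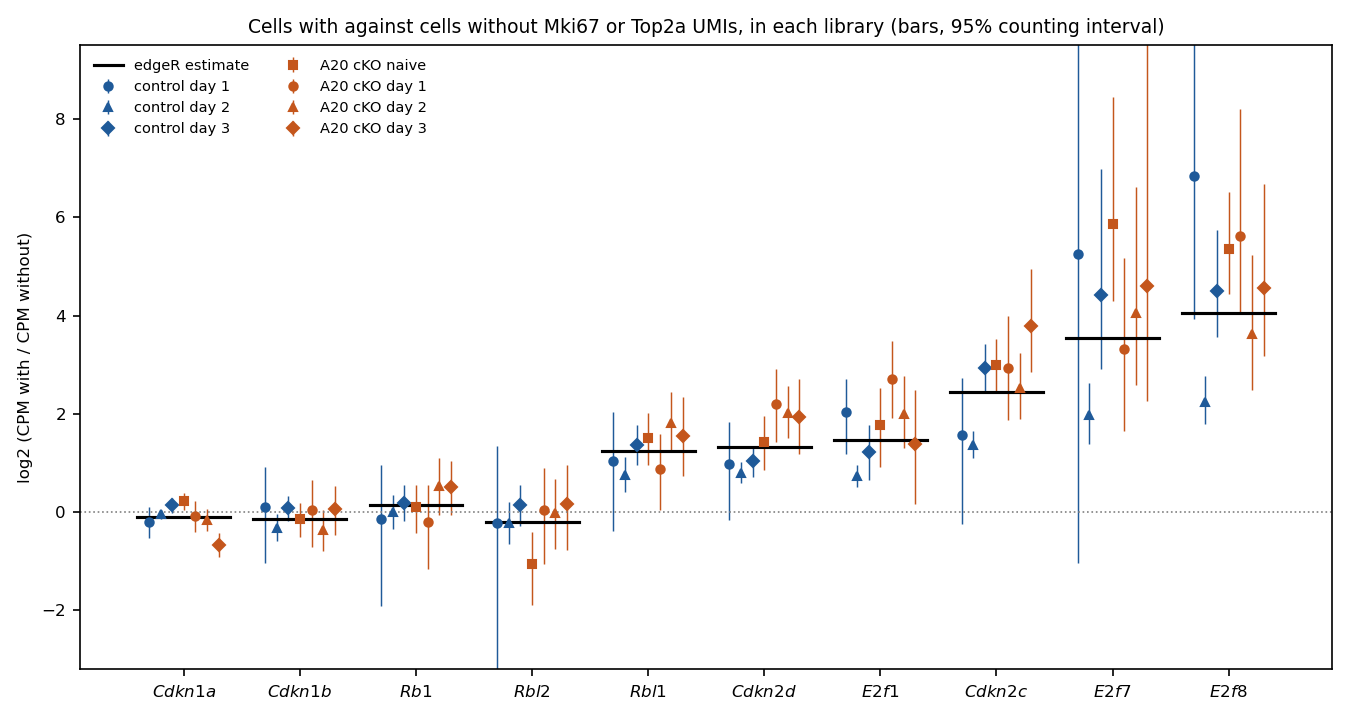
Log2 ratio of CPM in cells with over cells without Mki67 or Top2a UMIs, for each of the 10 genes and each library with at least 20 such cells. Points are single libraries with exact 95% counting intervals, 4 of which run past the axis (-3.2 to 9.5), and black lines mark the edgeR estimate, which for E2f7 is that of the fit without a filter. E2f8, E2f7, Cdkn2c, E2f1, Cdkn2d and Rbl1 lie above 0 in 7 of 7 libraries, and Cdkn1a lies on both sides of 0.

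The other genes of the pathway give these differences a frame. All 18 E2F target genes of the list, from Rrm2 of nucleotide synthesis (log2 difference 3.98) and cyclin A gene Ccna2 (3.84) to Pcna (1.65) and the helicase gene Mcm3 (0.82), rose in marker-positive cells in the edgeR test. Of cyclins and kinases that act on RB, 5 of 9 rose, led by the E-type cyclin genes Ccne2 (3.91) and Ccne1 (2.94), while the D-type cyclin gene Ccnd1 (-0.12) and Cdk6 (0.05) were not called. Of the other E2F, DP and DREAM genes, 7 of the 12 tested rose, among them E2f2 (1.55) and Mybl2 (2.92), and E2f3 (-0.02) and E2f4 (0.19) were not called. Cdkn2a (2.54) and Cdkn3 (3.24), a phosphatase of CDKs, rose as well, and Cdkn1c was not called (-0.62, adjusted p = 0.093 in the edgeR test). Of 9 tested p53 targets, the class of genes to which Cdkn1a belongs, none rose and 3 fell (Bbc3 at -0.32, Phlda3 at -0.44 and Trp53inp1 at -0.89). Of 8 tested early response genes, which mark activation during dissociation as well as in tissue, none rose and 3 fell (Ier2, Jun and Junb).

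To order the members over the cycle, cells were also sorted by genes other than the members: a cell was put in the G2/M class if 3 or more of 18 core G2/M genes had UMIs, in the S class if 3 or more of 12 core S genes did and fewer than 3 of the former, and otherwise among the other cells. The S class gave 16.5% and the G2/M class 14.2% of all UMIs. The 6 libraries with at least 20 cells in each class were control days 2 and 3 and the 4 A20 cKO libraries. Values below are in that order.

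E2f1 and Rbl1 were already high in S class cells. E2f1 had 63.8, 49.3, 35.6, 69.1, 74.9 and 29.2 CPM in the S class, against 28.5, 7.13, 4.99, 7.22, 12.7 and 5.96 CPM in other cells and 60.4, 33.4, 27.7, 53.8, 34.0 and 25.1 CPM in the G2/M class. The S class value was above the other two classes in each of the 6 libraries. Rbl1 had 21.5, 46.9, 52.0, 63.2, 72.5 and 42.4 CPM in the S class, 30.6, 74.9, 66.8, 114, 78.9 and 66.0 CPM in the G2/M class and 8.76, 17.0, 14.98, 20.8, 11.7 and 11.4 CPM in other cells. Its order was other, S and then G2/M in each of the 6 libraries.

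E2f7 and E2f8 were highest in G2/M class cells. E2f8 went from 6.21, 1.46, 1.41, 1.70, 2.03 and 1.63 CPM in other cells through 12.8, 8.41, 10.4, 7.90, 14.5 and 10.6 CPM in the S class to 37.9, 72.9, 92.2, 102, 61.9 and 75.4 CPM in the G2/M class. No library broke that order. E2f7 had 8.65, 3.61, 5.94, 1.98, 7.25 and 0 CPM in the S class and 18.9, 25.3, 36.9, 53.8, 46.4 and 25.1 CPM in the G2/M class.

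The INK4 genes had their high values in the G2/M class. In the S class Cdkn2d had 31.9, 33.7, 11.9, 15.8, 31.4 and 7.95 CPM, beside 35.9, 36.6, 16.8, 18.7, 22.3 and 16.3 CPM in other cells, and 85.6, 123, 83.0, 108, 139 and 91.1 CPM in the G2/M class. Cdkn2c had 23.0, 22.8, 11.9, 7.90, 24.2 and 5.301 CPM in the S class, 18.8, 8.78, 8.32, 5.52, 13.2 and 5.42 CPM in other cells and 70.2, 129, 118, 102, 116 and 126 CPM in the G2/M class. The G2/M values of Cdkn2c were above the S values by more than 3 times in each library.

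Cdkn1a was lowest in the S class, with 249.97, 159, 242, 142, 135 and 223 CPM there. Other cells had 283, 253, 332, 329, 282 and 496 CPM, and the G2/M class had 304, 265, 507, 401, 282 and 389 CPM. The S class lay below both in each of the 6 libraries. On control day 1, which had too few G2/M class cells for the fit, the S class was again lower, at 219 CPM in 585 cells against 314 CPM in other cells.

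The edgeR test was run over these 6 libraries (8693 genes, library as block). In S class against other cells it called 4 of 10 members higher (8.86% of all genes) and 1 lower (5.13%): E2f1 by 2.19 ± 0.21 (adjusted p = 1.33e-07), Rbl1 by 1.69 ± 0.15 (2.81e-08), E2f8 by 2.00 ± 0.42 (0.00173), E2f7 by 1.74 ± 0.55 (0.0349), and Cdkn1a by -0.70 ± 0.12 (0.000133). Cdkn2c (0.73 ± 0.30, adjusted p = 0.108) and Cdkn2d (-0.09 ± 0.19, 0.844) did not pass. The E2f7 call was lost without control day 3 (adjusted p = 0.112), without A20 cKO naive (0.101), without A20 cKO day 2 (0.0905) and where 2 core genes sufficed for a class (0.308). Without control day 2, Cdkn2c passed (0.86, adjusted p = 0.0332).

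G2/M class against other cells called 6 of 10 members higher and none lower, beside 19% and 16.3% of all genes by the same edgeR test. E2f8 differed by 4.56 ± 0.32 (adjusted p = 2.51e-11), E2f7 by 4.15 ± 0.43 (1.71e-08), Cdkn2c by 3.22 ± 0.23 (2.83e-11), Rbl1 by 2.19 ± 0.14 (6.46e-12), Cdkn2d by 1.92 ± 0.16 (2.97e-10) and E2f1 by 1.70 ± 0.23 (1.05e-06). Cdkn1a (0.07, adjusted p = 0.708), Cdkn1b (0.02, 0.923), Rb1 (0.24, 0.207) and Rbl2 (-0.02, 0.95) did not pass.

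Between the cycling classes, G2/M against S, edgeR called 6 of 10 members higher (6.7% of all genes) and none lower (3.54%). These were E2f8 (2.56 ± 0.34, adjusted p = 7.18e-06), Cdkn2c (2.49 ± 0.27, 3.9e-07), E2f7 (2.41 ± 0.47, 0.000836), Cdkn2d (2.01 ± 0.19, 6.37e-08), Cdkn1a (0.77 ± 0.13, 0.000117) and Rbl1 (0.50 ± 0.15, 0.0296). E2f1 had a value of -0.49 ± 0.23 (adjusted p = 0.211), and it passed without control day 2 (-0.66, 0.0466). Where 2 core genes sufficed for a class, Cdkn1a had 0.29 and its call was lost (adjusted p = 0.0573). The Rbl1 call was lost without control day 3 (adjusted p = 0.134), A20 cKO naive (0.077), A20 cKO day 1 (0.113) or A20 cKO day 3 (0.0622). Rb1 did not pass (0.50 ± 0.17, 0.0647) but did so without control day 2 (0.67, 0.0207) or A20 cKO naive (0.60, 0.0491).

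Cdkn1b, Rb1 and Rbl2 were called in none of the 3 comparisons with all 6 libraries. Of the other p53 target genes tested, 4 of 8 were also lower in the S class than in other cells, among them Ccng1 (-0.68) and Phlda3 (-1.47) in the edgeR test, and none was higher. In the G2/M class, where Cdkn1a was not called (0.07), 3 of these 8 genes were lower than in other cells and none was higher. Of the 7 E2F targets left to test once the core S genes were set aside, 6 rose in the S class and all 7 in the G2/M class.

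**Figure D3:**
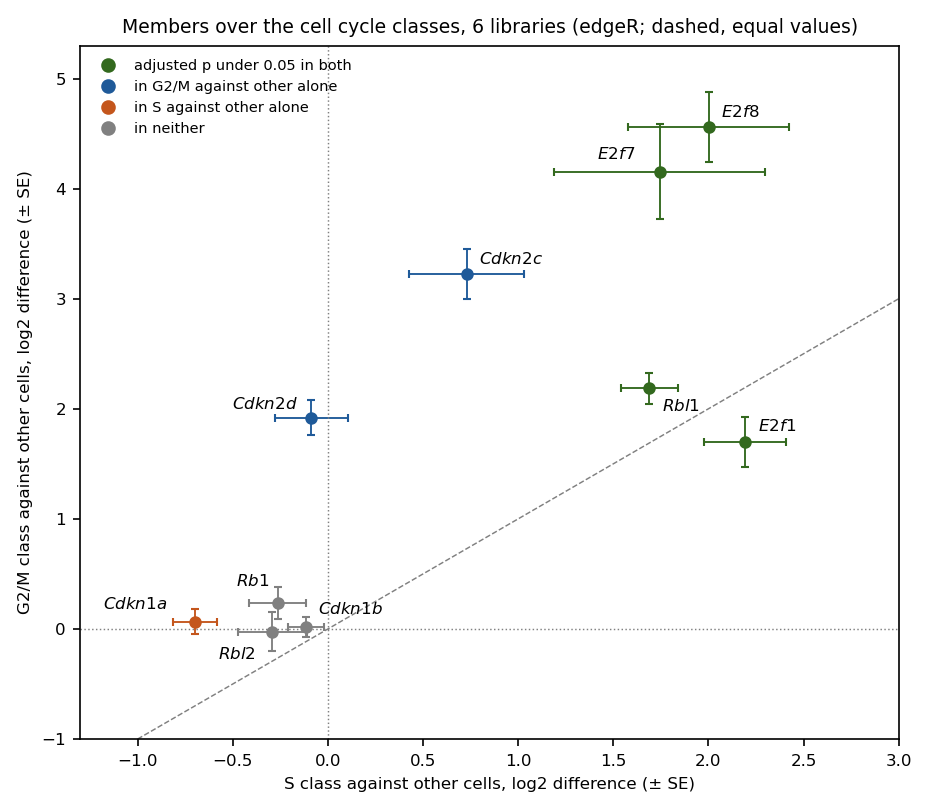
Log2 difference from other cells in the S class (horizontal axis) and in the G2/M class (vertical axis) for the 10 genes, as estimated by edgeR over 6 libraries, with bars of ± 1 SE and color for the comparisons in which a gene was called. On the dashed line both differences are equal. E2f8, E2f7, Cdkn2c and Cdkn2d lie far above it, E2f1 lies below it, and Cdkn1a stands alone at -0.70 in the S class and 0.07 in the G2/M class.

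Whether the members differed with time after injury was read as log2 ratios between libraries, with no test, since each group is 1 library. A member is counted where it differed at least 2-fold and had at least 50 UMIs in both sums together, and the control days share the control naive library, as the A20 cKO days share A20 cKO naive. Few UMIs (E2f1 5, E2f8 3 and Cdkn2c 19) stood in control naive, which makes those ratios wide.

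On control day 1, E2f1 was higher than in control naive by 1.93 (95% counting interval 0.81 to 3.70), while Cdkn2c (-1.15, -1.86 to -0.31) and Rbl2 (-1.11, -1.70 to -0.44) were lower. That is 1 member higher and 2 lower, beside 4.35% and 9.48% of all genes. Cdkn1a was higher by 0.84 (0.66 to 1.02), short of 2-fold. In marker-negative cells alone the values were 1.81 for E2f1, -1.14 for Cdkn2c and -1.11 for Rbl2, again 1 higher and 2 lower of 8 members, beside 4.36% and 9.42% of genes in these cells. Centred on the median gene, which lay at -0.15, E2f1 alone remained past 2-fold. All 9 tested early response genes were past 2-fold higher on that day, with a median of 6.14 and a sum of 18303 CPM against 923 CPM, and their part in these differences was not tested.

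By control day 2, E2f1 was higher by 3.79 (2.70 to 5.55), E2f8 by 3.09 (1.75 to 5.60), Cdkn2d by 1.72 (1.18 to 2.39) and Cdkn2c by 1.63 (1.01 to 2.41), and E2f7 was at least 5.53-fold higher against a floor of 3 UMIs in control naive. These 5 members compare with 6.4% of all genes higher, and no member was among the 8.13% lower. Of the E2F target genes, 17 of 18 were 2-fold or more higher as well. Within marker-negative cells, 2 of 8 members that reached 50 UMIs remained past 2-fold, Cdkn2d (1.28) and E2f1 (3.33), beside 3.72% of genes higher and 6.02% lower in these cells. Cdkn2c was at 0.80 there. E2f8, with 43 and 3 UMIs, was at 1.48 (0.04 to 4.02). E2f7, with 28 and 0 UMIs, was at least 2.09-fold higher against the floor of 3 UMIs. Both E2f7 and E2f8 were under 50 UMIs and were not counted. Of the marker-negative cells, 19.8% were S class.

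On control day 3 the members past 2-fold were E2f8 (2.48), E2f1 (2.20), Cdkn2d (1.61), Rbl1 (1.48), Cdkn1b (1.19, 0.82 to 1.61) and Cdkn2c (1.15), 6 of the 9 with enough UMIs, against 9.73% of genes higher and 3.25% lower, none of them lower. This comparison crosses the split of the libraries, and Cdkn1b and Rbl1 are members that lie higher throughout the barcode-sharing libraries. In marker-negative cells, Cdkn1b (1.16), Cdkn2d (1.30) and E2f1 (1.75) stayed past 2-fold, 3 of 8 members beside 7.65% of genes higher and 3.07% lower, while Cdkn2c was at -0.25 and E2f8, with 9 and 3 UMIs, at -0.29.

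In A20 cKO mice, whose 4 libraries lie on the same side of the split, day 1 differed from naive by 1 member, E2f1 (1.26, 0.75 to 1.77), beside 2.24% of genes higher and 1.93% lower. Day 2 was higher by 2.15 (1.36 to 2.99) for E2f7, 1.61 for E2f1, 1.40 (1.01 to 1.78) for Cdkn2c, 1.34 for E2f8 and 1.30 for Cdkn2d, which is 5 members beside 3.77% of genes higher, with none among the 3.49% lower. Day 3 had no member past 2-fold, beside 2.71% higher and 2.74% lower, with E2f8 at 0.92 and Cdkn1a at 0.41. Of 8 members measured in marker-negative cells, none was past 2-fold on any A20 cKO day, beside 2.3% of genes higher and 1.9% lower on day 1, 1.88% and 3.65% on day 2, and 2.03% and 3.29% on day 3. On day 2 the marker-negative cells gave 0.67 for Cdkn2c, 0.45 for Cdkn2d and 0.85 for E2f1.

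**Figure D4:**
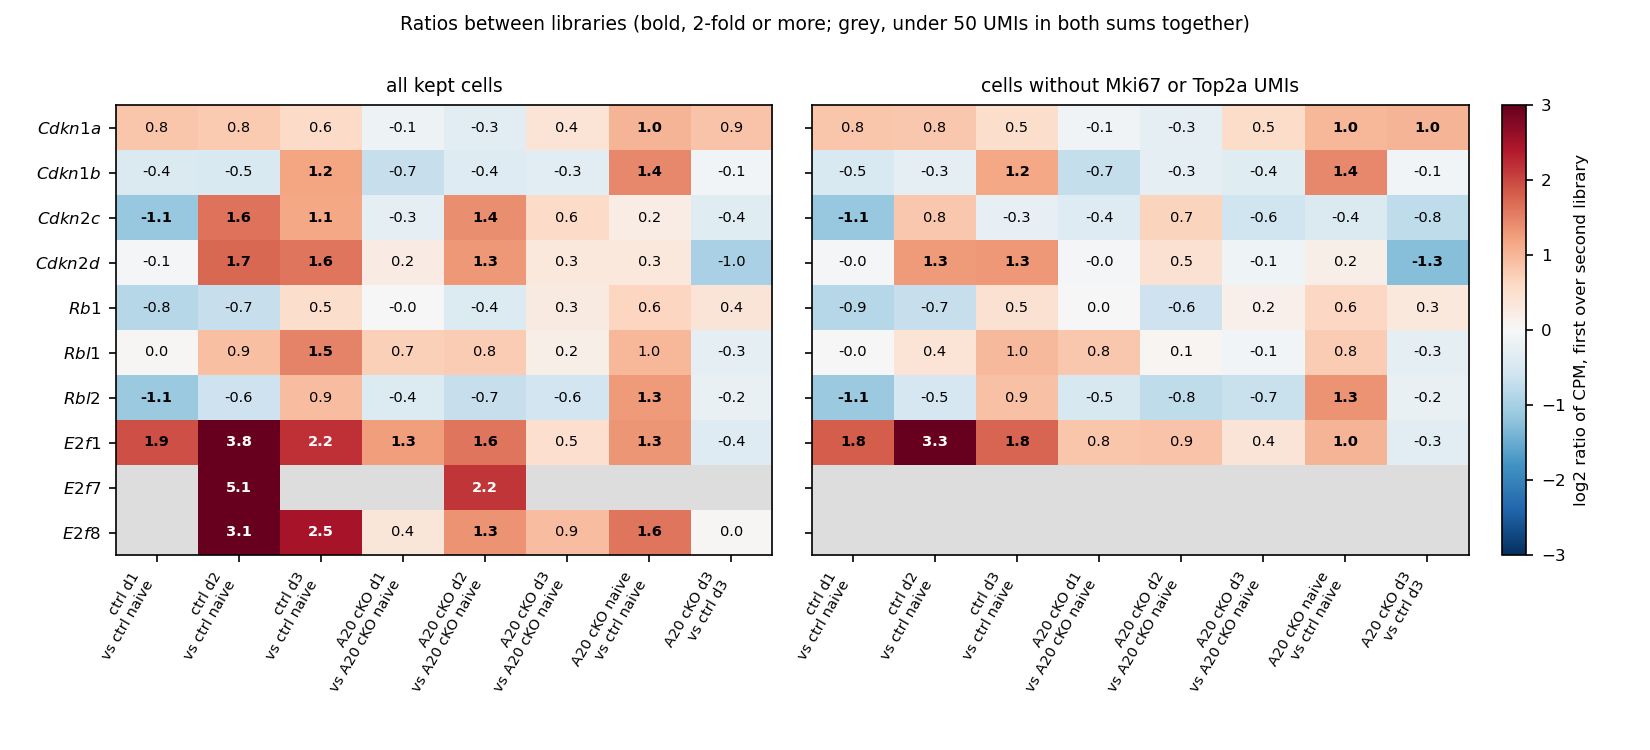
Log2 ratio of CPM between libraries for the 10 genes, over all kept cells (left) and over cells without Mki67 or Top2a UMIs (right), with 1 column per comparison, bold where 2-fold or more and grey under 50 UMIs. Color stops at a log2 ratio of 3, there is no test because each group is 1 library, and the E2f7 value of control day 2 depends on the 0.5 UMIs added to a count of 0. Within each genotype the day 2 columns hold the highest ratios of E2f1, E2f8, Cdkn2c and Cdkn2d over all cells, and in cells without the markers no measured member passes 2-fold on an A20 cKO day.

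Between genotypes, A20 cKO naive had more than control naive of E2f8 (1.60), Cdkn1b (1.45, 1.08 to 1.86), E2f1 (1.32), Rbl2 (1.28) and Cdkn1a (1.03, 0.85 to 1.22). These 5 members stand beside 8.56% of genes higher, with none among the 3.12% lower, and Rbl1 was just under 2-fold at 1.00. In marker-negative cells, Cdkn1b (1.45), Rbl2 (1.34), E2f1 (1.03) and Cdkn1a (1.00) were past 2-fold, 4 of 8 members beside 7.37% of genes higher and 3.06% lower, and E2f8, with 11 and 3 UMIs, was at -0.62. Genotype and the library split cannot be told apart here. The comparison of A20 cKO day 3 with control day 3 stays within the barcode-sharing libraries, and there no member passed 2-fold, beside 2.29% of genes higher and 3.45% lower. Cdkn1a was higher by 0.86 (0.75 to 0.97) and Cdkn2d lower by -0.97 (-1.39 to -0.58). In marker-negative cells alone these became 1.01 and -1.27, both past 2-fold, beside 2.32% of genes higher and 3.68% lower.

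Whether the difference between marker-positive and marker-negative cells itself depended on genotype was tested as an interaction in edgeR over the 7 libraries. These were control days 1, 2 and 3 and all A20 cKO libraries, naive among them. Time points thus served as replicates of a genotype, and day was not in the model. Genotype therefore cannot be fully told apart from time point or from the library split. Of the 9 members tested, 1 was called, Cdkn2d, whose difference was larger in A20 cKO cells by 0.95 ± 0.20 (adjusted p = 0.0182), beside 1.03% of all genes larger and 0.051% smaller. Its log2 ratios were 0.99, 0.80 and 1.04 on the control days and 1.43, 2.20, 2.02 and 1.94 in the A20 cKO libraries. These values did not overlap, but counting intervals did, as on control day 1 (-0.16 to 1.83) and in A20 cKO naive (0.85 to 1.95). The call was lost without control day 2 (0.85, adjusted p = 0.467), without A20 cKO day 2 (0.88, 0.094), without cells above 2 times the median depth (0.57, 0.468) and within the 5 barcode-sharing libraries (0.81, 1). Without control day 3, 4 members were called, E2f8 (2.49), Cdkn2c (1.64), E2f1 (1.11) and Cdkn2d (1.05), beside 2.38% of all genes larger and 0.112% smaller. With all 7 libraries the values for E2f8 (1.80, adjusted p = 0.261), Cdkn2c (1.06, 0.227) and E2f1 (0.98, 0.189) were of the same sign and did not pass. Cells of the G2/M class made up 0%, 11.3% and 1.80% of marker-negative cells on control days 1, 2 and 3, and 0.183% to 1.45% in A20 cKO libraries. Among marker-positive cells they made up 9.4%, 38.5% and 37.0% on these control days, and 37.3% to 48.9% in A20 cKO libraries. The part of these shares in the Cdkn2d value was not tested. The share of marker-positive cells with a single marker UMI ran from 51.4% to 79.7% on the control days and from 36.7% to 50.7% in A20 cKO libraries. With these cells left out, control day 1 held 13 marker-positive cells, under the minimum of 20, and dropped out of the fit as well. Cdkn2d then had 0.93 and was not called (adjusted p = 0.0676 in edgeR).

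For each member, the gene most like it over the 8 libraries was found by Pearson's r of log2(CPM + 1) among 6484 genes, as a description without a test, since the libraries also differ in depth and lie on either side of the barcode split. E2f8 was most like Esco2 (r = 0.99), E2f7 like Incenp (0.97), Cdkn2c like Fbxo5 (0.97) and E2f1 like Dnajc9 (0.98), with Dut and Rfc4 next. Rbl1 was most like Cep295 (0.98), Rb1 like Iars2 (0.99), Rbl2 like Map3k2 (0.99) and Cdkn1b like Akap8l (0.99). Cdkn2d was most like Chst1 (0.97), and Cdkn1a like Pvrl2 (0.94), the lowest of these values.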

How the data were processed

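Cells of 8 libraries (10x Genomics 3′ capture) were analysed as gene by cell matrices of UMI counts, deposited by the authors without normalization and made with Cell Ranger 2.1.1 on build mm10 per the submitters' processing notes. The labels and the methods name different kit versions. Groups came from the labels, with 1 library per group.

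Cells with at least 1000 UMIs, 500 genes and at most 10% mitochondrial UMIs were kept (14626 of 14883 barcodes). Doublets were not called, and cells above 2 times their library's median UMIs were left out as an alternative. UMIs were summed per library and class and given as CPM with exact Poisson 95% intervals. Ratios between libraries had 0.5 UMIs added and exact conditional binomial intervals. Classes within libraries were compared with edgeR 4.0.16 (R 4.3.3) quasi-likelihood tests with library as block, Benjamini-Hochberg adjustment over all genes and a threshold of 0.05. DESeq2 1.42.0 was an alternative. Mki67 and Top2a, or the core S and G2/M genes, were left out of the tests of the classes they define. The fits were tested on simulated data. Members of the 10-gene set, the gene lists and the tests were chosen with earlier results of these data known. The genes named are the members, with a few values from each fixed list, and for likeness the closest genes of each member with at least 200 UMIs. Promoter windows are from RefSeq, and Rb1 had none.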

Additional observations from a re-analysis of the deposited data

Results flagged for a closer look

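Cdkn2d drew attention because the difference between cells with and without Mki67 or Top2a UMIs differed between genotypes in the interaction test. The difference was larger by 0.95 on the log2 scale in A20 cKO libraries (SE 0.20, adjusted p = 0.0182 by edgeR's quasi-likelihood test). It was the only member called of 9 tested. The libraries of a genotype were different time points rather than replicates, and naive mice were in the fit for A20 cKO alone. The share of G2/M class cells among marker-positive and marker-negative cells also differed between libraries, and its part was not tested. Of the libraries in the fit, control days 1 and 2 and all others lie on different sides of the barcode-sharing split, so genotype and that split cannot be fully told apart, and within the 5 barcode-sharing libraries the value was 0.81 and was not called.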

How the results depend on the processing

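The members called in cells with against without Mki67 or Top2a numbered 5 or 6 in every alternative, and those called in G2/M class against other cells 6. Of 156 recounts of members, 132 stayed within 1.5 times the main count, and of 765 refits of single members 718 kept direction and side of the threshold, 15 lost and 14 gained a call and 18 changed sign. The genotype interaction (1 call) fell to 0 without deep cells, at 2 or more marker UMIs, with DESeq2 and within the 5 barcode-sharing libraries, was 4 without a filter, and ran from 0 to 4 as each library was left out.

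Counts past 2-fold changed as follows, where the runs on marker-positive cells alone, like those on the 5 barcode-sharing libraries, on control days 1 and 2 alone and on 2 or more marker UMIs in the interaction, were chosen after seeing the data. Centring on the median gene left 1 of 3 on control day 1 and gave 1 (from 0) on A20 cKO day 3. Marker-negative cells alone gave 2 (from 5) on control day 2, 3 (from 6) on control day 3, 0 (from 1 and 5) on A20 cKO days 1 and 2, and 2 (from 0) for A20 cKO day 3 against control day 3. In these cells E2f7 and E2f8 were under 50 UMIs in each comparison and were not counted. Marker-positive cells alone gave 0 on A20 cKO day 1, where E2f1, with 28 and 19 UMIs, was at 1.77 but under the minimum of 50 UMIs. They gave 2 on A20 cKO day 2, Cdkn2d (1.03) and E2f1 (1.07). Without deep cells the counts were 2 on A20 cKO day 2, 3 for A20 cKO naive against control naive (from 5) and 1 for the day 3 libraries. A minimum of 100 UMIs gave 3 for the naive libraries. The mean of cell CPM gave 1 on A20 cKO day 3 and 2 between the day 3 libraries, where the stricter cell filter gave 1.

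Sign changes in the fits and ratios were these. For cells with against without markers these were Cdkn1b with Top2a alone (0.0058), Cdkn1a with Mki67 alone (0.032) and Rb1 in control days 1 and 2 alone (-0.040). As each library was left out, the interaction ran from -0.21 (without control day 2) to 0.14 (without control day 3) for Cdkn1b, from -0.42 (without control day 2) to 0.11 (without A20 cKO naive) for Rbl2, and from -0.29 to 0.073 (without A20 cKO day 3) for Cdkn1a. In G2/M against other cells they were Cdkn1b at 2 core genes (-0.14) or without a filter (-0.019), Rbl2 without TMM (4.8e-05) and Cdkn1a at 2 core genes (-0.10), and leaving out single libraries gave -0.039 to 0.050 for Cdkn1b, -0.12 to 0.11 for Rbl2 and -0.074 to 0.16 for Cdkn1a. At 2 core genes, G2/M against S gave 0.20 for E2f1 and -0.045 for Cdkn1b, the Cdkn1a call was lost (0.29, adjusted p = 0.0573 by edgeR), and so was E2f7 in S against other (adjusted p = 0.308). Marker-negative cells gave -0.25 for Cdkn2c and -0.29 for E2f8 on control day 3, and -0.62 for E2f8 in A20 cKO naive against control naive, and marker-positive cells gave -0.51 for E2f8 on A20 cKO day 2. The cause was not tested.

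Ratios of marker-positive cells against control naive are not given, since it held 3 such cells. Each group was 1 library of pooled animals, so the spread between animals is unknown. The p-values measure how the difference between cell classes of a library varied over libraries of differing genotype and day. Few UMIs limit E2f7 and E2f8 most.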
